A study of Oryza sativa with 12 samples.

Results

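The rice genes DREB1A, DREB1B, DREB1C, DREB1G and RAB16D were followed in the stem base of wild-type and crl1 seedlings before and after auxin. They were chosen by name, as every probe set whose single gene carries 1 of these 5 names as symbol or synonym, and 7 of the 57381 probe sets on the Affymetrix Rice Genome Array met that rule. DREB1A (LOC4347620), DREB1B (LOC4347618), DREB1G (LOC4330306) and RAB16D (LOC4350451) have 1 probe set each, and DREB1C (LOC4339974) has 3. The study compared crl1 seedlings with wild type around an auxin treatment in order to find auxin-responsive genes that depend on CRL1, a regulator of crown root initiation. The 6 groups were crl1 just before auxin (0 h), crl1 2 h and crl1 4 h after it, and wild type at the same 3 times. All seedlings were of the cultivar Taichung 65 and 8 days old, grown at 26 °C with 12 h of light per day, and moved to liquid half-strength Murashige and Skoog medium at 7 days. Indole-3-acetic acid was added to 1e-06 M for the 2 h and 4 h groups. Each group has 2 arrays, labelled repetition 1 and repetition 2 of the experiment, and each extract pooled 20 stem bases. The labels do not name the crl1 allele, and the level of CRL1 itself was not analysed here. No untreated seedlings at 2 h or 4 h were analysed here, so auxin and the passing of time cannot be told apart in any comparison with 0 h.

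DREB1 proteins, known as CBF proteins in Arabidopsis, are AP2/ERF transcription factors that bind the dehydration-responsive element in promoters of stress genes. Rice DREB1A and DREB1B are known as cold-induced genes, and their overexpression raises tolerance to cold, drought and salt. RAB16 genes encode dehydrins, hydrophilic proteins of the late embryogenesis abundant class that accumulate in drying seeds and in water-stressed tissue, and abscisic acid is their classical inducer.

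Signals are linear MAS5 intensities as the authors deposited them, and outside the marker sums no probe set's level is set against another's. The background was the 95th percentile of 64 RPTR probe sets, which match reporter genes that rice lacks, and it lay between 5.83 and 18.5 on the 12 arrays. Of 57194 rice probe sets, 42.8 to 57.0% were above it. The wild-type 2 h array of repetition 2 stood apart, where the 3′ GAPDH probe set was 35.6 times as bright as the 5′ one, compared with 3.08 to 17.3 times elsewhere, and a mean correlation with the other arrays of 0.904 against 0.935 to 0.949. The stem-base label was checked with shoot meristem markers: OSH1, OSH6 and FON1 were above background on all 12 arrays, and WOX4 on 0. RNA came from whole stem bases, in which fewer cells of a type and less RNA per cell cannot be told apart. Tests used limma on log2 signals of the 32524 rice probe sets above their array's median on at least 2 arrays, with Benjamini-Hochberg adjustment over all of them and a threshold of 0.05. Of the 5 genes, 4 passed that filter with 1 probe set each, and the 3 DREB1C probe sets did not. In the gene table DREB1B, DREB1H and DREB1A lie next to each other in that order, and RAB16D lies in a stretch that also holds RAB16C, RAB16B and RAB21, the gene also called RAB16A.

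RAB16D was above background on all 12 arrays, at 10.2 to 125.8 times it, and its signal was lower in crl1 than in wild type at every time. At 0 h its signal was 158.9 and 321.4 in crl1, against 733.4 and 777.4 in wild type. At 2 h it was 243.6 and 289.5 in crl1, against 385.5 and 695.5 in wild type. At 4 h it was 83.9 and 189.0 in crl1, against 385.3 and 233.8 in wild type. Both crl1 arrays therefore lay below both wild-type arrays at each of the 3 times, a pattern that 3.42% of the tested probe sets shared. Averaged over the times, RAB16D fell by 1.32 ± 0.26 on the log2 scale in crl1 (SE), or to 0.401 of the wild-type level, with a limma adjusted p of 0.0353. It was the only member of the 4 tested that passed in this comparison, in which 1.38% of all tested probe sets passed and 0.925% passed as lower. Of all tested probe sets, 0.922% had a lower log2 fold change, and the median over all was 0.03.

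At single times the difference in RAB16D did not pass. The log2 fold change of crl1 against wild type was -1.74 ± 0.45 at 0 h (limma adjusted p 0.297), -0.96 ± 0.45 at 2 h (0.458) and -1.25 ± 0.45 at 4 h (0.565). The 2 h value was -0.54 without the wild-type array that stood apart. The members that passed numbered 0 at each of these times, against 0.101% of all tested probe sets at 0 h, 0.0738% at 2 h and 0.0799% at 4 h. By the unadjusted p under 0.05, 1 member was counted at each time: RAB16D at 0 h and 4 h, and DREB1B at 2 h. Over all tested probe sets that share was 9.05% at 0 h, 11% at 2 h and 7.36% at 4 h. As the groups did not overlap at any time, crl1 was necessarily below wild type in all 6 pairs of the same time and repetition. These pairs therefore add only the sizes, log2 differences of -2.21 to -0.31. All 6 such pairs were below 0 for 6.01% of tested probe sets. The call itself was less stable than the sign. A fit without wild type 2 h repetition 1 carries little weight here, since it leaves the array that stood apart as the only one of its group. Leaving out 1 array at a time kept the log2 fold change between -1.51 and -1.12, but the adjusted p, 0.0109 to 0.117, stayed under 0.05 in only 3 of 12 such fits, those without crl1 0 h repetition 2, crl1 4 h repetition 2 or wild type 2 h repetition 1. Without the wild-type 2 h array that stood apart the values were -1.18 and 0.0596, and without the intensity trend in limma the adjusted p was 0.093.

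**Figure D1:**
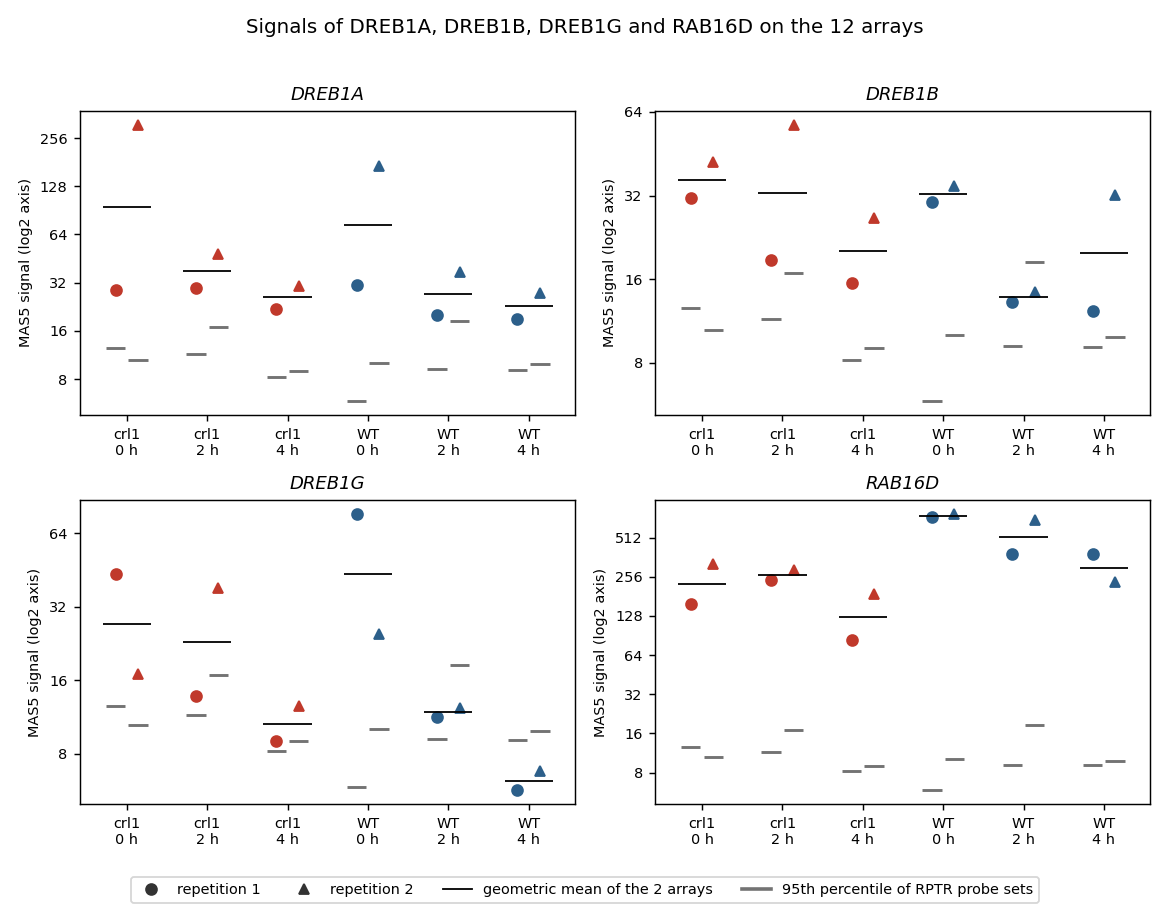
MAS5 signal (log2 axis) of DREB1A, DREB1B, DREB1G and RAB16D on each of the 12 arrays, by group, with circles for repetition 1, triangles for repetition 2, black lines for the geometric mean of the 2 arrays and grey lines for the reporter background of each array. RAB16D is lower in crl1 than in wild type at each time, DREB1A stands high on both 0 h arrays of repetition 2, and DREB1G is at background in wild type at 4 h.

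Markers of other tissues moved in the same comparison. Of 7 tested root genes, 3 fell in crl1 averaged over the times: the auxin efflux carrier gene PIN2 by 1.79 ± 0.22 on the log2 scale (limma adjusted p 0.0035), the root growth gene RAA1 by 1.28 ± 0.18 (0.0073) and the iron transporter gene IRT1 by 1.55 ± 0.28 (0.0263). Of the other 4, LSI1, LSI2 and IRT2 had values above 0 and AMT1-2 one below 0. In crl1 at 0 h and 2 h, PIN2 and IRT1 were not above background on either array, so their fitted values are no exact fold, and with an offset of 16 they were -0.89 and -0.73. At 0 h alone PIN2 and RAA1 also passed as lower in crl1 (adjusted p 0.0266 each). The summed signal of the 8 root genes on the array overlapped between genotypes. It was 1164 to 2033 in crl1 and 1118 to 1852 in wild type. That sum was mostly LSI1, at 794.5 to 1608 by itself, whereas RAA1, IRT1 and PIN2 reached at most 98.3, 48.3 and 39.8. It therefore says little about those 3 genes. The phosphate transporter gene PT6 was at or below background on all 12 arrays. Of 4 leaf photosynthesis genes, RBCS, for the small subunit of rubisco, fell by 0.66 ± 0.12 (limma adjusted p 0.0297) by its brightest probe set. The other 3 did not pass, and 1 of the 4 values lay above 0. Another RBCS probe set had mean log2 signals in crl1 of 6.5, 7.3 and 6.3 at 0, 2 and 4 h, against 6.5, 7.1 and 7.0 in wild type. A further one had 8.0, 8.4 and 6.9 against 8.4, 9.1 and 7.8, and the last was at or below background. The summed leaf signal was 8365 to 12050 in crl1 and 10240 to 18190 in wild type. The brightest gene of that list, CAB2R, gave 4868 to 11200 of it. With 1 array left out at a time, PIN2 and RAA1 kept their averaged calls in 12 of 12 fits, RBCS in 4 and IRT1 in 3. The part of these tissues in the RAB16D difference was not tested. Among wounding and jasmonate markers, 0 of 9 passed in the averaged comparison, at summed signals of 1440 to 2340 in crl1 and 1533 to 1799 in wild type.

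The other RAB16 genes of the stretch, named here as neighbours of RAB16D after their values were seen, did not pass in the averaged comparison. RAB16C was 13.4 and 8.26 in crl1 against 38.7 and 42.8 in wild type at 0 h, and 9.12 and 20.9 in crl1 against 31.1 and 137.8 in wild type at 2 h. At 4 h RAB16C was 2.66 and 32.8 in crl1, against 45.7 and 34.9 in wild type. Like RAB16D, it was below wild type in 6 of 6 same-repetition pairs, with an averaged log2 fold change of -2.10 ± 0.58 (limma adjusted p 0.111), and 3 of its 6 crl1 signals were at or below background. RAB16B gave -0.53 ± 0.38 (adjusted p 0.518) and was below wild type in 4 of 6 pairs. At 0 h its signal was 46.7 and 39.2 in crl1 against 108.3 and 126.4 in wild type, while at 2 h and 4 h the genotypes overlapped. RAB21, at 1552 to 2873 in crl1 and 1637 to 3389 in wild type, gave 0.06 ± 0.20 (adjusted p 0.916) and was below wild type in 3 of 6 pairs. Whether these genes differ from RAB16D in their response to genotype was not tested.

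**Figure D2:**
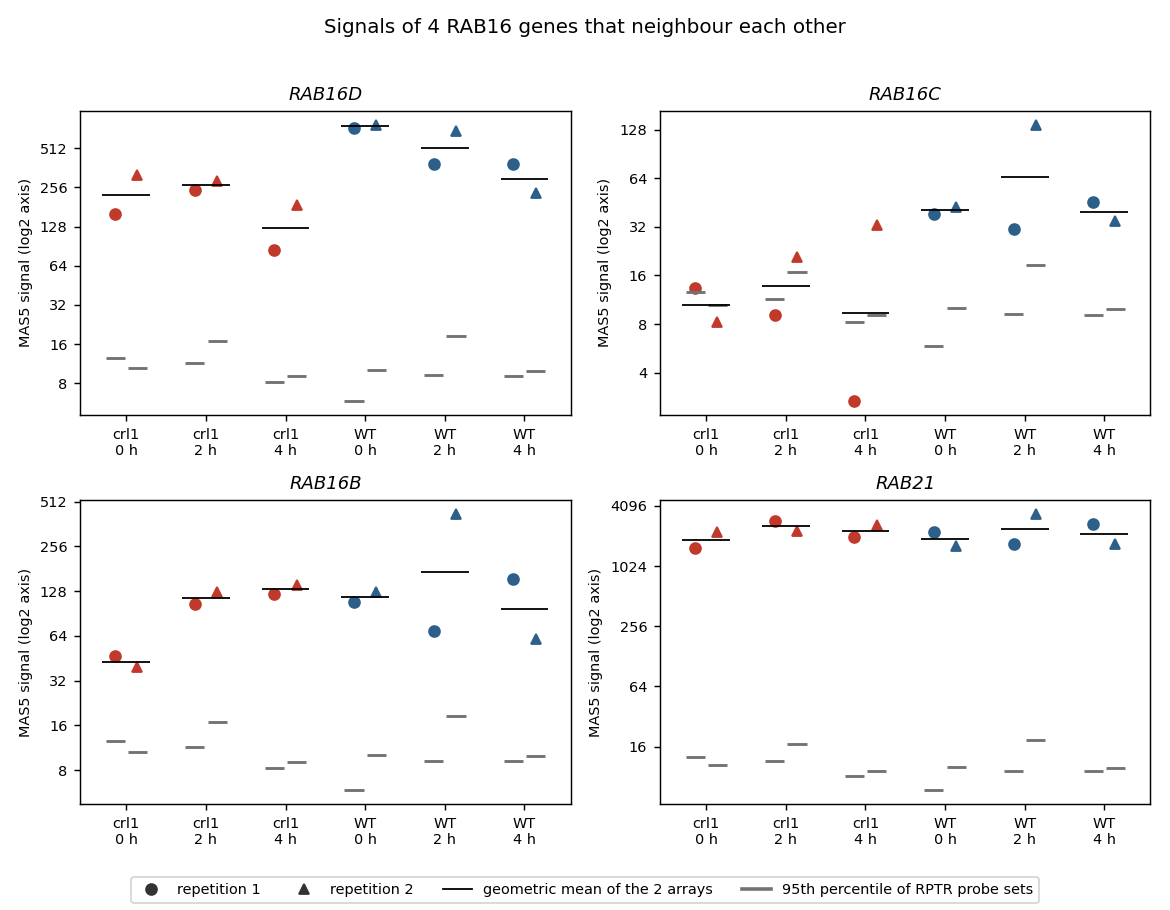
MAS5 signal (log2 axis) of RAB16D, RAB16C, RAB16B and RAB21 on each array, by group, with circles for repetition 1, triangles for repetition 2, black lines for geometric means and grey lines for the reporter background. RAB16D and RAB16C lie lower in crl1 at each time, whereas the RAB21 signals of both genotypes overlap, from 1552 to 2873 in crl1 and from 1637 to 3389 in wild type.

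DREB1A was above background on all 12 arrays, and at 0 h its signal differed more between repetitions than between genotypes. Its signal at 0 h was 28.9 and 309.8 in crl1, against 31.1 and 171.8 in wild type, repetition 1 first. At 2 h it was 29.5 and 48.1 in crl1, against 20.1 and 37.1 in wild type. At 4 h it was 22.1 and 30.4 in crl1, against 19.1 and 27.6 in wild type. The 2 arrays of repetition 2 at 0 h were thus the 2 highest, and the other 10 arrays stayed between 19.1 and 48.1. At 0 h repetition 2 exceeded repetition 1 by 10.7-fold in crl1 and 5.52-fold in wild type, against 1.38-fold to 1.85-fold in the other 4 groups. Only 20 tested probe sets, 0.0615%, including DREB1A itself, were higher in repetition 2 by at least as much in both genotypes at 0 h. The log2 fold change of crl1 against wild type averaged 0.34 ± 0.56 (limma adjusted p 0.802), and the genotypes overlapped at each time.

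DREB1B lay nearer to background. Its signal at 0 h was 31.4 and 42.2 in crl1, against 30.3 and 34.7 in wild type. At 2 h it was 18.7 and 57.5 in crl1, against 13.2 and 14.4 in wild type. At 4 h it was 15.5 and 26.5 in crl1, against 12.3 and 32.1 in wild type. It was above background on 11 arrays, the exception being the wild-type 2 h array of repetition 2, and above the brightest reporter probe set on 6. Only at 2 h were both crl1 arrays above both wild-type arrays, as were those of 21.7% of tested probe sets, and the log2 fold change there was 1.25 ± 0.57 (limma adjusted p 0.453), or 1.31 without the wild-type array that stood apart. The averaged value was 0.48 ± 0.33 (adjusted p 0.486), and 0.10 with the 2 h arrays left out. Repetition 2 was above repetition 1 in all 6 groups for DREB1B and for DREB1A, as it was for 7.90% of tested probe sets.

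DREB1G came closest of the DREB1 genes to a change over time. In crl1 its signal was 43.5 and 17.0 at 0 h, 13.8 and 38.4 at 2 h, and 9.04 and 12.5 at 4 h. In wild type it was 76.8 and 24.8 at 0 h, 11.4 and 12.4 at 2 h, and 5.66 and 6.79 at 4 h. All 4 arrays at 4 h were below all 4 arrays at 0 h, which held for 2.53% of tested probe sets. Both wild-type arrays at 4 h were at or below background. With those arrays raised to background, the geometric mean of wild type at 4 h was still 4.59-fold lower than at 0 h. That bounds the mean only: the 4 h to 0 h signal ratio was 0.074 in repetition 1 and 0.274 in repetition 2. The fitted log2 fold change was -2.82 ± 0.65 (limma adjusted p 0.252). In crl1 the fitted value at 4 h was -1.35 ± 0.65 (adjusted p 0.824). Unlike DREB1A, DREB1G was lower in repetition 2 than in repetition 1 at 0 h, at 0.390 of it in crl1 and 0.323 in wild type. At 2 h and 4 h both crl1 arrays were above both wild-type arrays, as were those of 21.7% and 23.5% of tested probe sets. The fitted log2 difference was 0.96 ± 0.65 at 2 h (limma adjusted p 0.574) and 0.78 ± 0.65 at 4 h (0.871). At 2 h the wild-type signal of repetition 2, 12.4, was under the background of its array, 18.5. The crl1 signal of repetition 1 at 2 h, 13.8, was under that background too. Without this wild-type array, the one that stood apart, the fitted difference at 2 h was 1.02. With wild type at 4 h raised to background, the geometric means differed by 1.12-fold. In repetition 1 the crl1 signal at 4 h, 9.04, was under the background of the wild-type array, 9.15. The average over the times was 0.35 ± 0.38 (adjusted p 0.676).

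DREB1C was not measured above the reporters. Its probe set with the suffix A1_at gave 0.686 to 9.29 in crl1 and 1.58 to 8.07 in wild type, above background on 2 of 12 arrays, crl1 at 4 h in repetition 2 and wild type at 0 h in repetition 1. The S1_at set gave 0.330 to 6.31 in crl1 and 0.141 to 1.21 in wild type, and the S1_x_at set 0.180 to 4.20 in crl1 and 0.325 to 5.03 in wild type, both above background on 0 of 12 arrays. No fold change is given for levels in this range, and none of the 3 probe sets was tested.

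**Figure D3:**
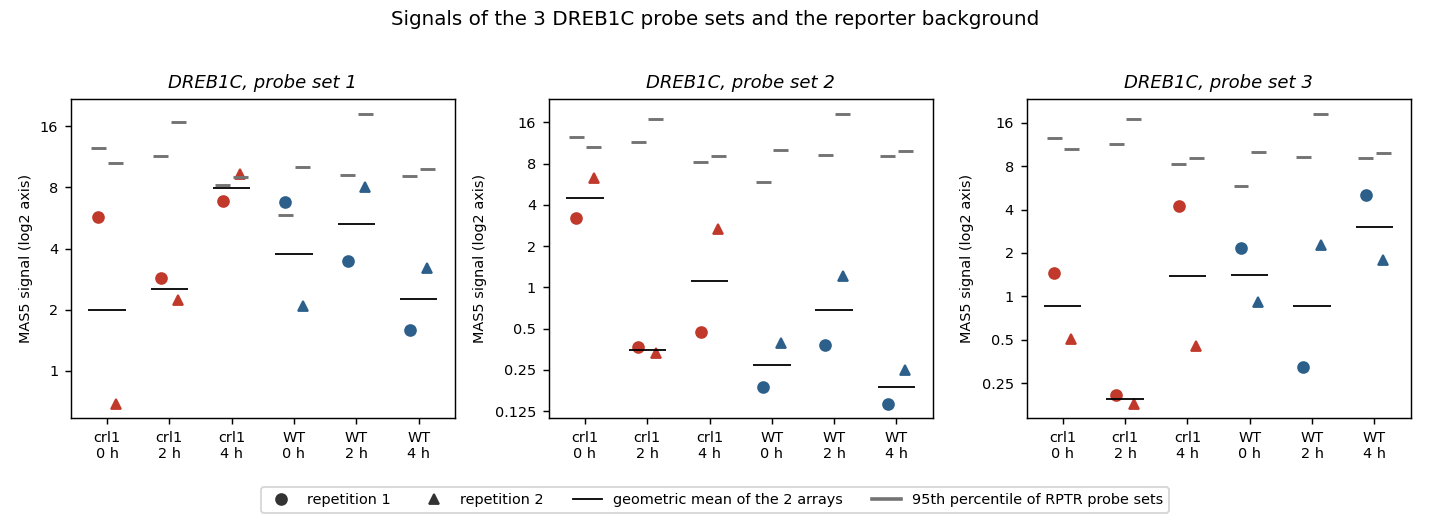
MAS5 signal (log2 axis) of the 3 DREB1C probe sets on each array, by group, with circles for repetition 1, triangles for repetition 2, black lines for geometric means and grey lines for the reporter background. Nearly all points lie under the grey line of their array, with 2 exceptions for probe set 1 (suffix A1_at).

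Over time, the 4 tested members were lower at 4 h than at 0 h, but none passed the test. Averaged over the genotypes, the log2 fold change of 4 h against 0 h was -2.09 ± 0.46 for DREB1G (limma adjusted p 0.11), -1.77 ± 0.69 for DREB1A (0.476), -1.09 ± 0.32 for RAB16D (0.267) and -0.78 ± 0.40 for DREB1B (0.634). The count of 0 members stands beside 0.455% of all tested probe sets, and 3 of the 4 members had an unadjusted p under 0.05, as did 8.83% of all tested probe sets. In all 4 pairs of arrays with the same genotype and repetition number, each of the 4 genes was lower at 4 h than at 0 h, a pattern of 9.38% of tested probe sets. The pairs spanned log2 differences of -3.76 to -0.44 for DREB1G, -3.35 to -0.39 for DREB1A, -1.73 to -0.77 for RAB16D and -1.30 to -0.11 for DREB1B. The DREB1G value is the fitted one and no bound, since both wild-type 4 h arrays were at or below background, and with an offset of 16 it was -1.10. For DREB1A the size came from repetition 2 at 0 h: without those 2 arrays its averaged value was -0.30, while that of DREB1G was -2.83. Of the root markers, the ammonium transporter gene AMT1-2 fell in the same comparison, by 1.29 ± 0.21 (limma adjusted p 0.0307), a call kept in 3 of 12 fits that left out 1 array. In that comparison 4 of the 7 tested root markers had values above 0 and 3 below, at a median of 0.30. AMT1-2 alone passed. The summed root signal, mostly that of LSI1, was 1164 to 1398 at 4 h against 1336 to 1435 at 0 h in crl1. In wild type it was 1816 to 1852 at 4 h against 1118 to 1330 at 0 h. The part of root tissue in the change of the members over time was not tested.

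By genotype, 0 members passed at 4 h against 0 h in crl1, where 0.0154% of tested probe sets did, and 0 in wild type, where 0.0184% did. The counts at an unadjusted p under 0.05 were 0 in crl1, beside 6.16% of all tested probe sets, and 2 in wild type, DREB1G and RAB16D, beside 6.89%. At 4 h RAB16D gave -0.84 ± 0.45 in crl1 and -1.33 ± 0.45 in wild type, and DREB1A gave -1.87 ± 0.98 in crl1 and -1.67 ± 0.98 in wild type. Both 4 h arrays lay below both 0 h arrays for DREB1B and DREB1G in crl1, as did those of 13.8% of tested probe sets, and for DREB1A, DREB1G and RAB16D in wild type, as did those of 20.4%.

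At 2 h the picture was less even. The log2 fold change against 0 h averaged -1.37 ± 0.69 for DREB1A (limma adjusted p 0.796), -1.06 ± 0.46 for DREB1G (0.762), -0.69 ± 0.40 for DREB1B (0.83) and -0.16 ± 0.32 for RAB16D (0.947). The 0 members that passed stand beside 0.126% of tested probe sets in the average, 0.04% in crl1 and 0.00307% in wild type, and DREB1G had an unadjusted p under 0.05 in the average, as did 6.55% of them, and in wild type, as did 7.8%. Without the wild-type 2 h array that stood apart, these averages were -1.59 for DREB1A, -1.09 for DREB1G, -0.72 for DREB1B and -0.37 for RAB16D. With both 0 h arrays of repetition 2 left out, the averaged DREB1A value was 0.10 and that of RAB16D 0.12. In wild type the 2 h arrays lay below the 0 h arrays for DREB1B, DREB1G and RAB16D, as for 18.4% of tested probe sets, and in crl1 for none of the 4 members, beside 14.1% of tested probe sets.

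The responses were also compared between genotypes directly. The difference of the 2 h responses, crl1 minus wild type, was 1.64 ± 0.92 for DREB1G (limma adjusted p 0.869), 1.08 ± 0.80 for DREB1B (0.884), 0.78 ± 0.63 for RAB16D (0.892) and 0.09 ± 1.38 for DREB1A (0.997). For the 4 h responses it was 1.46 ± 0.92 for DREB1G (0.99), 0.49 ± 0.63 for RAB16D (0.99), -0.19 ± 1.38 for DREB1A (0.996) and -0.14 ± 0.80 for DREB1B (0.995). In limma 0% of all tested probe sets passed in either difference, where 1831 and 1090 had an unadjusted p under 0.05, and the members numbered 0 by both counts. Without wild type 2 h repetition 1, which leaves the array that stood apart as the only one of its group, 1033 probe sets passed in the difference of the 2 h responses and 0 members did. A difference in response of the members between the genotypes was thus not detectable at this precision.

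**Figure D4:**
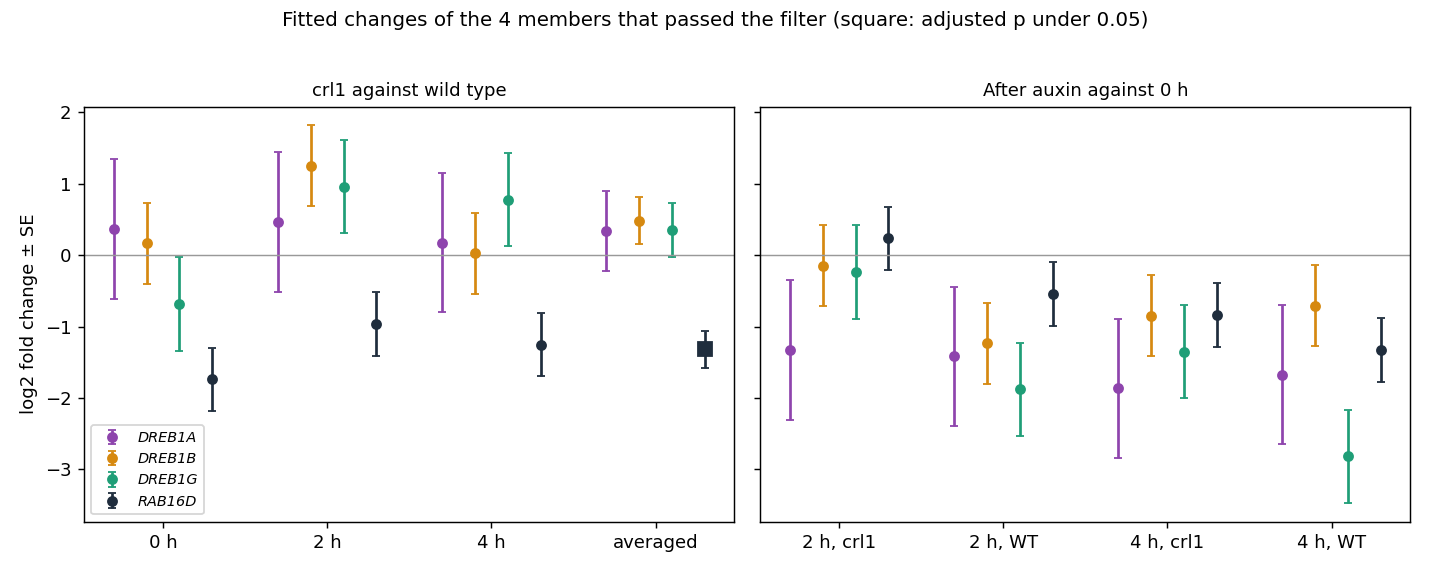
Fitted log2 fold changes with standard errors of the 4 tested members, crl1 against wild type at each time and averaged (left), and each later time against 0 h by genotype (right), with a square for an adjusted p under 0.05. The only square is RAB16D in the averaged comparison, at -1.32, and all 8 values at 4 h against 0 h lie below 0.

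In order of the geometric mean of the 2 arrays, used here for each gene, RAB16D ran from wild type at 0 h through wild type at 2 h and 4 h to crl1 at 2 h, 0 h and 4 h. Wild type at 0 h did not overlap wild type at 2 h, as for 18.4% of tested probe sets. Wild type at 2 h and at 4 h were barely apart, at 385.5 against 385.3. From wild type at 4 h downward each group overlapped the next. For DREB1A the order was crl1 0 h, wild type 0 h, crl1 2 h, wild type 2 h, crl1 4 h and wild type 4 h, with each group overlapping the next. For DREB1B it was crl1 0 h, crl1 2 h, wild type 0 h, crl1 4 h, wild type 4 h and wild type 2 h, and only wild type 0 h and crl1 4 h did not overlap as neighbours. For DREB1G it was wild type 0 h, crl1 0 h, crl1 2 h, wild type 2 h, crl1 4 h and wild type 4 h. There were gaps between crl1 2 h and wild type 2 h, as for 21.7% of tested probe sets, and between crl1 4 h and wild type 4 h, as for 23.5%. Wild type was at background on both arrays at 4 h and on the repetition 2 array at 2 h. The gap of DREB1B and that of RAB16D between 2 h and 4 h were not counted over all tested probe sets.

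Genes around the members in the stress pathway gave few calls. Of the dehydrin and late embryogenesis abundant genes on the array, all 9 were tested and 0 passed in crl1 against wild type averaged over the times, with 3 values above 0, 6 below, and a median of -0.53 against 0.03 over all tested probe sets. LEA3, a classical drought-induced member of the class and named here after its values were seen, had the lowest adjusted p. Its signal was 56.7 and 33.2 in crl1 against 107.3 and 108.2 in wild type at 0 h, 18.4 and 46.9 in crl1 against 53.0 and 64.7 in wild type at 2 h, and 36.9 and 41.5 in crl1 against 64.7 and 45.8 in wild type at 4 h. The averaged log2 fold change was -0.93 ± 0.24 (limma adjusted p 0.0938). Besides RAB16C, RAB25, of the same class, had the largest difference, at -0.94 ± 0.54 (adjusted p 0.407), and it was above background on 6 of 12 arrays, with crl1 at 0 h and 2 h on neither.

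Among other DREB1 and DREB2 factors, 3 of 4 on the array were tested and 0 passed in any comparison. DREB1E gave 0.32 ± 0.33 in crl1 against wild type averaged (limma adjusted p 0.661), and at 2 h it was not above background on any array of either genotype. DREB2A, a dehydration-responsive factor of the second class, gave -0.31 ± 0.22 in crl1 (0.5). DREB2D was at or below background on all 12 arrays. The 18 regulators upstream of DREB1 and the 16 other drought and cold genes also gave 0 calls in every comparison, with medians of 0.10 and 0.13 in crl1 against wild type. MYBS3, a cold-response regulator of DREB1 that the gene table also lists as myb30 and that stands in both lists, gave -0.67 ± 0.15 (adjusted p 0.0608). MYB2, a stress-responsive MYB factor, gave -0.39 ± 0.18 (0.317), and BURP3, of the BURP-domain family, gave 0.86 ± 0.21 (0.0774).

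The abscisic acid list gave 1 call in 23 tested genes, at 2 h against 0 h averaged, where 0.126% of all tested probe sets passed. PP2C68, a type 2C protein phosphatase of the family that restrains abscisic acid signalling, rose at 2 h against 0 h averaged over the genotypes, by 1.48 ± 0.20 (limma adjusted p 0.0256). In crl1 its signal was 210.8 and 227.3 at 2 h against 54.3 and 55.9 at 0 h, and in wild type it was 123.0 and 228.7 at 2 h against 91.0 and 80.4 at 0 h. Both 2 h arrays exceeded both 0 h arrays in each genotype, as did those of 21.7% of tested probe sets in crl1 and 13.7% in wild type. Its adjusted p stayed under 0.05 in 4 of 12 fits that left out 1 array, with log2 values of 1.26 to 1.71. In crl1 against wild type the list gave 0 calls with a median of -0.03, and at 4 h against 0 h 0 calls with a median of 0.13. The other medians at 4 h against 0 h were 0.05 for dehydrins, -0.05 for upstream regulators, -0.18 for other drought and cold genes and 0.26 for other DREB factors, each with 0 calls, against 0.05 over all tested probe sets.

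**Figure D5:**
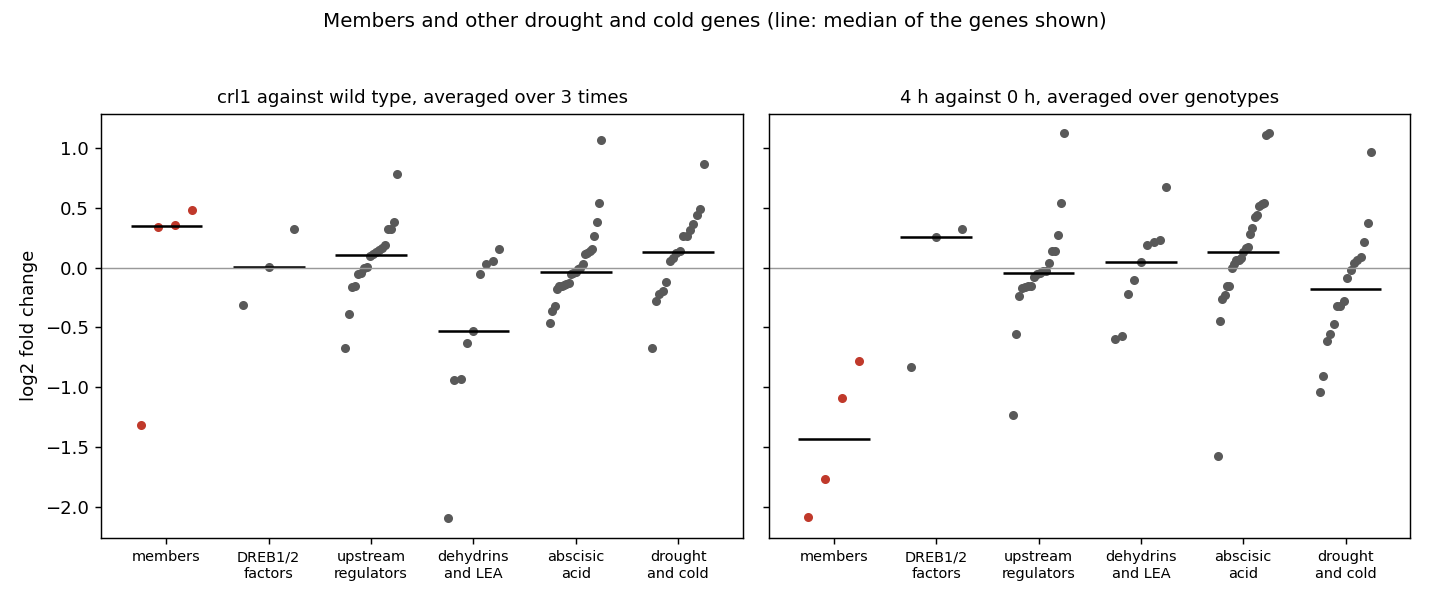
Fitted log2 fold changes of the 4 tested members (red) and of the tested genes of 5 lists (grey), crl1 against wild type averaged over 3 times (left) and 4 h against 0 h averaged over genotypes (right), with a line at each median. RAB16D at -1.32 and the dehydrin RAB16C at -2.10 are the lowest points on the left, and the 4 members lie between -2.09 and -0.78 on the right.

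Likeness of pattern was measured as Pearson's r of log2 signals over the 12 arrays, across 2285 genes with a name of their own, and is a description only, since all points share the same arrays. RAB16D was most like CRSH1, a chloroplast enzyme of guanosine tetraphosphate metabolism (r = 0.914), XBOS33, a RING-type ubiquitin ligase (0.901), and OsrcaA1, rubisco activase (0.89). DREB1A was most like PDC, pyruvate decarboxylase of alcoholic fermentation (0.872), CCR1 (0.869) and the phosphatase gene PP2C28 (0.861). DREB1A, PDC and CCR1 each had their 2 highest signals on the 0 h arrays of repetition 2, and their likeness without those arrays was not measured. DREB1G was most like the calcium sensor genes CBL2 (0.883) and CML18 (0.81) and the magnesium transporter gene MRS2-A (0.795). DREB1B was most like CKX11, a cytokinin oxidase (0.882), DI19-2 (0.826) and BHLH141 (0.826). PDC, CKX11 and BHLH141 were above background on 3, 5 and 2 arrays.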

How the data were processed

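RNA was measured on 12 arrays, 2 for each of 6 groups. The table holds MAS5 signals, linear intensities that the authors deposited; the submitters' processing notes name MAS5 and Affymetrix Expression Console, with no version. They were scaled by the authors to a trimmed mean of 100 (lowest and highest 2% dropped), as the values themselves show. Detection calls were not used here. Signals were turned to log2 and modelled in R 4.3.3 by limma 3.58.1, using lmFit and then eBayes with an intensity trend, 1 mean per group over all 12 arrays, with 6 residual and a median of 4.79 prior degrees of freedom. Tests were two-sided. The number of arrays limits the precision. The fit was tested on simulated data with independent noise of the same spread on every array. That simulation holds no array that stands apart and no difference shared between repetitions, so it does not cover these features of the data. No pair of arrays held identical values.

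Members were matched through the platform annotation, which gives 22436 rice probe sets 1 gene, 95 several and 34663 none, and through the gene table (assembly ASM3414082v1, names and neighbours only). A list gene is represented by its brightest kept probe set. The members, lists and tests were chosen with earlier results of these data known. Named list genes are those past the threshold or, where a list had none in any comparison, the 2 with the largest averaged difference between genotypes among those above background on at least 6 arrays; others are said to be chosen after seeing values. Repetition numbers were not treated as pairs in the main fit. Deviations from group means nevertheless correlated above 0.1 in 11 of 15 pairs of groups, with r from 0.008 to 0.249. For probe sets with a mean signal above 100, r ran from -0.087 to 0.582. The main fit leaves any such shared difference between repetitions out, and the replicate block is the alternative that includes it. Alternatives covered scaling, filter, offset, block, array weights, trend, groups in the fit and single arrays left out. Promoter sequences were not used here and the planned motif search was not run.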

Additional observations from a re-analysis of the deposited data

How the results depend on the processing

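The 48 log2 fold changes of the 4 tested members were each recomputed under the alternatives, which gave 1016 values. The number of members past the threshold was 0 in every setting in 11 of 12 comparisons. For crl1 against wild type averaged over the times it was 1, and it was 0 without the intensity trend (RAB16D adjusted p 0.093) and, chosen after seeing the data, with the 2 h arrays left out (-1.50, adjusted p 0.075). It was 0 to 1 when single arrays were left out, 1 only without crl1 0 h repetition 2, crl1 4 h repetition 2 or wild type 2 h repetition 1. The other 7 settings gave RAB16D -1.42 to -1.25 and kept the call. The cause of the losses was not tested. With the replicate block the RAB16D adjusted p was 0.0144, no member's call changed, and the count over all probe sets was 1037 instead of 449. Across all probe sets that count ran from 151 without wild type 0 h repetition 1 to 3687 without wild type 2 h repetition 1, and from 216 with the 2 h arrays left out. Without wild type 2 h repetition 1, counts over all probe sets were also far higher in the other comparisons that use wild type at 2 h. These were crl1 against wild type at 2 h, 2 h against 0 h averaged and in wild type, and the difference of the 2 h responses. With all arrays kept but only the compared groups fitted, 2 probe sets passed in crl1 against wild type at 2 h, against 24 in the main fit. Median centring gave 84 higher and 458 lower calls, against 148 and 301. At 4 h against 0 h averaged, 148 calls became 14 without wild type 4 h repetition 1 and 7 with both 0 h arrays of repetition 2 left out.

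In all, 38 values of 16 results turned sign, and 0 of these passed the threshold. Outside the left-out arrays these were DREB1B for crl1 against wild type at 4 h (-0.059 with median centring, -0.045 with quantile normalization and -0.014 with an offset of 16), DREB1A for the difference of the 2 h responses (-0.093 with quantile normalization and -0.060 with the offset), and the 2 h averages of DREB1A (0.10) and RAB16D (0.12) with both 0 h arrays of repetition 2 left out, an alternative chosen after seeing the data. Leaving out single arrays gave, for crl1 against wild type, -1.34 to 2.08 at 0 h, -0.089 to 0.44 at 4 h and -0.23 to 0.91 averaged for DREB1A, -0.045 to 0.38 at 0 h and -0.67 to 0.72 at 4 h for DREB1B, and -1.50 to 0.13 at 0 h for DREB1G. For 2 h against 0 h in crl1 it gave -3.04 to 0.38 for DREB1A, -0.96 to 0.66 for DREB1B, -0.97 to 0.50 for DREB1G and -0.28 to 0.74 for RAB16D, and for the 2 h average -0.41 to 0.10 for RAB16D. The difference of responses ran from -1.62 to 1.80 at 2 h and -1.91 to 1.52 at 4 h for DREB1A, from -0.83 to 0.55 at 4 h for DREB1B and from -0.10 to 1.07 at 4 h for RAB16D. PP2C68 kept its call in 6 of 10 other settings.

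Against the brightest reporter probe set, DREB1B was above background on 6 arrays instead of 11, DREB1G on 4 instead of 9 and the DREB1C A1_at probe set on 0 instead of 2. Against the median reporter the 3 DREB1C probe sets were above it on 10, 3 and 6 arrays. Signal over background limits DREB1C, DREB1B and DREB1G, and 2 arrays per group limit every comparison.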

Other observations

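DREB1A was among 68 of the 32524 tested probe sets, of 31 genes where a single gene is given, with a shared pattern at 0 h. In these, both 0 h arrays of repetition 2 were above background and at least 4-fold above repetition 1 of the same genotype. By the same rule with the repetitions exchanged, 27 were at least 4-fold lower in repetition 2. In 48 of the 68, both 0 h arrays of repetition 2 were higher than each of the other 10 arrays. PDC, pyruvate decarboxylase, had 8.11 and 282.8 in crl1 at 0 h, against 3.86 and 91.1 in wild type at 0 h, and at most 11.6 on the other 8 arrays. CCR1 had 13.5 and 90.5 in crl1 at 0 h, against 9.61 and 71.0 in wild type at 0 h, and at most 20.9 elsewhere. These genes were singled out after their values were seen, and what sets those 2 arrays apart was not tested.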
